A study of Homo sapiens with 6 samples.

Results

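The genes described here are 10 surface proteins, or partners of surface proteins, through which a tumour cell restrains immune cells: CD274, PDCD1LG2, CD276, VSIR, CD47, CD24, CMTM4, CMTM6, PVR and NECTIN2. They were taken by symbol, each symbol matched exactly 1 row, and they make 10 of the 60623 genes in the deposited table. All 6 libraries came from the established cell line DU145, a human prostate cancer line labelled as wild type, and the labels name no immune cells in the cultures. The control group of 3 libraries received the solvent DMSO, and the treated group of 3 libraries received 1 µM CCS1477, a compound that blocks the bromodomains of p300 and CBP, enzymes that acetylate histones, both for 24 h. Whether the replicates came from separate cultures is not labelled, so p-values reflect only the spread between these libraries, which may be technical. Because the libraries are bulk, fewer cells carrying a transcript and less transcript per cell cannot be told apart.

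PD-L1, the product of CD274, binds the receptor PD-1 on T cells and dampens their activity; PDCD1LG2 encodes PD-L2, a second ligand of that receptor. Interferon gamma is a classical inducer of CD274, acting through JAK kinases and IRF1, and the protein is then glycosylated, recycled and degraded under separate control, with CMTM6 and CMTM4 protecting it from lysosomal breakdown. CD47 and CD24 signal to phagocytes through SIRPA and SIGLEC10, and PVR and NECTIN2 bind TIGIT, CD226 and related receptors on T and NK cells.

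The windows around the transcription starts of CD274 and of the 4 members whose transcripts fell are printed here so that the letters at the interferon, NF-κB and cyclic AMP motifs can be seen beside the values. They are RefSeq sequences on GRCh38.p14, from 250 bases before to 50 bases after the start, in the direction of transcription, and 9 of the 10 members were in the table. CD274 lies at chr9:5450292-5450591 on the plus strand, CD24 at chr6:106975578-106975877 on the minus strand (the most upstream of its 3 windows), VSIR at chr10:71773471-71773770 on the minus strand, PVR at chr19:44643660-44643959 and NECTIN2 at chr19:44846047-44846346, both on the plus strand. Capitals mark matches, on either strand, to the interferon-stimulated response element core (GAAA, any 2 bases, GAAA), the STAT site GAS (TTCNNNGAA), AP-1 (TGANTCA), the E-box (CACGTG), the cyclic AMP response element (TGACGTCA), the TATA box (TATAAA) and the NF-κB consensus.
CD274: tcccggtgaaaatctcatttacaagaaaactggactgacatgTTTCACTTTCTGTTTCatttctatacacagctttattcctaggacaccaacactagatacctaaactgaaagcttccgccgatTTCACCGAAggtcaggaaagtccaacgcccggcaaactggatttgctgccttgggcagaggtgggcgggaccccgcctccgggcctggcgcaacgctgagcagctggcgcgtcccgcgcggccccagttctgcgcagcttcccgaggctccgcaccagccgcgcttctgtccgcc
CD24: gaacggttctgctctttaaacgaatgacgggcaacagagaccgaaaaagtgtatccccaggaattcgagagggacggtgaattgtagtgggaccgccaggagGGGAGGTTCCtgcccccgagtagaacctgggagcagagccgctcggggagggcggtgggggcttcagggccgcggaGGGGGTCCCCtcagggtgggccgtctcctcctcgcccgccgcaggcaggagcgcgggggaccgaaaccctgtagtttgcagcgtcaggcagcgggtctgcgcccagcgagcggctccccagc
VSIR: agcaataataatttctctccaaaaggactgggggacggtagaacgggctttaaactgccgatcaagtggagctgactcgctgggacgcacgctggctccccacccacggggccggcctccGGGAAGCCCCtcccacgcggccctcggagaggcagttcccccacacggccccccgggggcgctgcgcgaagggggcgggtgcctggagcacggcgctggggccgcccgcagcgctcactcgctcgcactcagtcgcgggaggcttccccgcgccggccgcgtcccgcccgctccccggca
PVR: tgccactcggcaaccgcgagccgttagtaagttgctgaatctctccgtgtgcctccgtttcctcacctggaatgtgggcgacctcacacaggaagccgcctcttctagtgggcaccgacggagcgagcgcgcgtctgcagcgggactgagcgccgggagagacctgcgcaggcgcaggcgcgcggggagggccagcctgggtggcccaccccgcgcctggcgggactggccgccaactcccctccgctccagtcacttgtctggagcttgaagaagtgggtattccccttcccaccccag
NECTIN2: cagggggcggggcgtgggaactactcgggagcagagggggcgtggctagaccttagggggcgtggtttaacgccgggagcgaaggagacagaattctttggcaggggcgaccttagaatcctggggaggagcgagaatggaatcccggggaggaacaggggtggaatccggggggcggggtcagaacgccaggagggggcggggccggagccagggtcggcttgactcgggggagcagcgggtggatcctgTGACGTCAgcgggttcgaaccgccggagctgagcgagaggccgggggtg

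The CD274 window held 2 overlapping matches to the interferon response element core, read on the opposite strand, from position -208 to -199 and from -202 to -193 relative to the start, and a GAS match from -125 to -117. Of 35116 windows of the same length in the table, 3.57% held an interferon response element core and 7.66% a GAS. None of the other members' windows in the table held either motif. The CD24 window held 2 NF-κB matches and that of VSIR 1, against 11.3% of all windows with any. A window of CD276, a member that did not pass, also held 1 NF-κB match, from -68 to -59, and is not printed. The NECTIN2 window held a cyclic AMP response element, found in 1.85% of all windows. The PVR window held no match to the motifs searched. GC boxes (GGGCGG), left in lower case, were in 45.0% of all windows and, among those printed, in the windows of CD274, CD24, VSIR and NECTIN2. Windows of CD47, CMTM6, CMTM4 and CD276, which are not printed, held GC boxes too. A match describes letters and says nothing of binding.

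Library totals ran from 8286880 to 11956734 counts. All 5 epithelial markers were tested, and KRT8 had 809.9 ± 60.0 CPM in DMSO and 790.2 ± 49.6 CPM in CCS1477 (CPM after TMM scaling, SD, n = 3), while KRT19 (log2 fold change -0.34) and CDH1 (-1.17) fell. Of 5 prostate luminal markers, KLK3 and KLK2 had 0 counts in every library. The 6 leukocyte markers summed to 38.0 to 70.4 TPM in DMSO and 32.5 to 40.9 TPM in CCS1477, with PTPRC and CD3E at 0 counts in every library. Of these 6, CD68 fell (log2 fold change -0.56), and its part in the results was not tested. Endothelial markers summed to at most 0.46 TPM, and fibroblast markers to 5.45 to 11.1 TPM in DMSO and 4.30 to 5.44 TPM in CCS1477.

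Of the 10 members, 9 had enough counts to be tested, and PDCD1LG2 did not. With CCS1477, 4 of the 9 fell (CD24, VSIR, PVR and NECTIN2), 0 rose and 5 did not pass (CD274, CD276, CD47, CMTM4 and CMTM6), by the quasi-likelihood test of edgeR, with Benjamini-Hochberg adjustment over all 14928 tested genes and a threshold of 0.05. Over all tested genes, 10.7% were lower and 7.23% higher by the same rule. DESeq2 likewise called 4 members lower and 0 higher, with 1535 lower and 1119 higher over all genes. The median log2 fold change was -0.27 over the 9 members and -0.0030 over all tested genes, and 8 of the 9 had a negative value, against 50.4% of all tested genes. These 8 include CMTM4 at -0.0056, which was above 0 under 11 of the 18 alternatives described below. The groups did not overlap in 5 members, each lower with CCS1477, where 19.3% of all tested genes were lower without overlap.

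The calls were not equally firm. CD24 and VSIR passed under all 18 alternatives, which changed the scaling, the tool, the filter, the threshold or the libraries used. PVR and NECTIN2 lost their calls when DMSO 1, CCS1477 1 or CCS1477 2 was left out, so that the count of lower members was 2 without any 1 of these libraries.

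**Figure D1:**
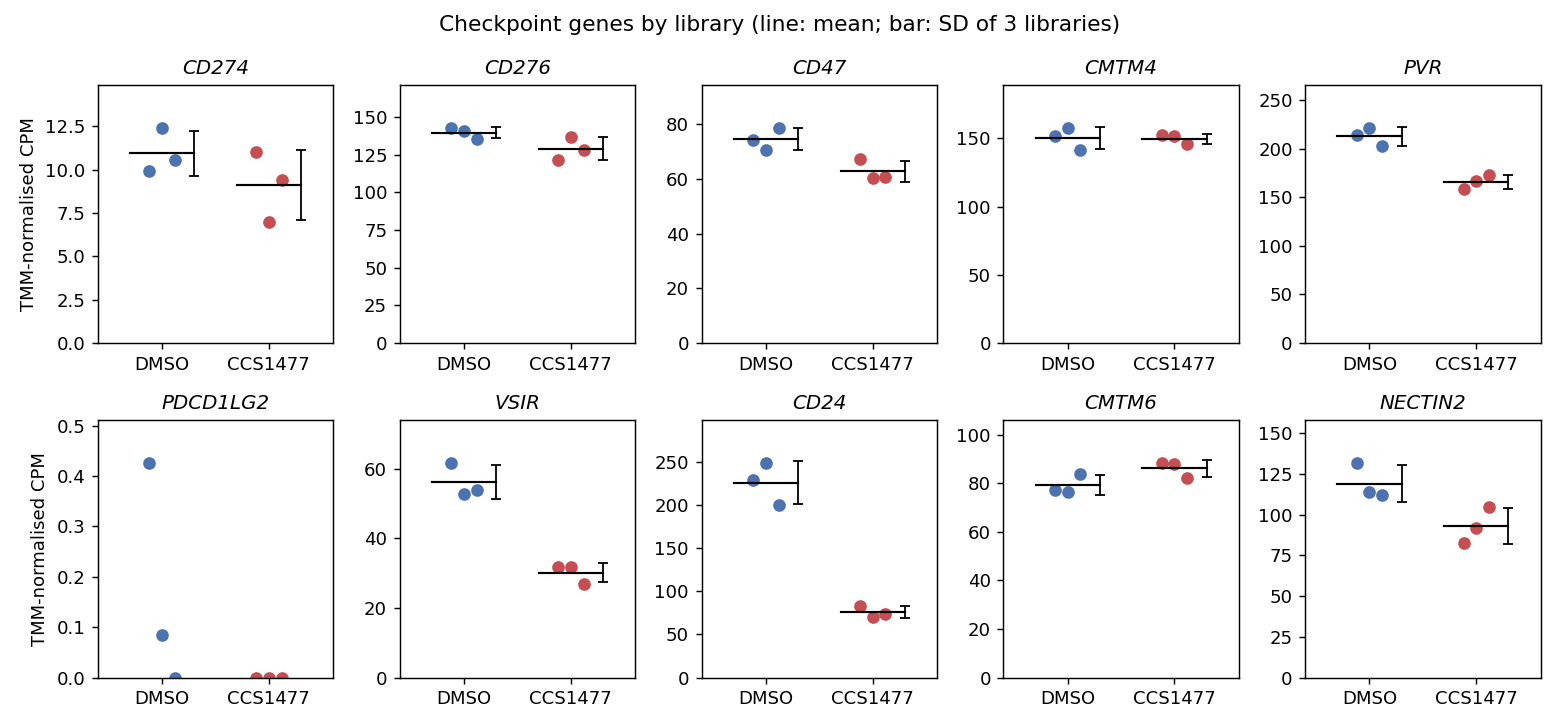
TMM-normalised counts relative to library size (CPM) in each of the 6 libraries for the 10 members, with points for libraries, lines for means and bars for the SD of 3 libraries (not drawn for PDCD1LG2). The 3 CCS1477 libraries lie below the 3 DMSO libraries for CD24, VSIR, CD47, PVR and NECTIN2, and the groups overlap for CD274, CD276, CMTM4 and CMTM6.

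CD274, the gene the study centres on, is on chromosome 9 (5450503 to 5470566, plus strand, identifier ENSG00000120217). It had 9.89, 12.4 and 10.6 CPM in DMSO libraries 1, 2 and 3, and 10.996, 6.98 and 9.37 CPM in CCS1477 libraries 1, 2 and 3. The groups overlapped: CCS1477 1 was above 2 of the DMSO libraries and CCS1477 2 was the lowest of all. These values rest on 67 to 145 counts per library. The fitted level with CCS1477 was 83.0% of that in DMSO, with a 95% interval from 61.1% to 112.7% (log2 fold change -0.27 ± 0.20, SE, adjusted p = 0.403, edgeR quasi-likelihood test). The interval includes 100%, and the test was not passed. Leaving out CCS1477 2 moved the log2 fold change to -0.10, and leaving out CCS1477 1 moved it to -0.42, and it passed under none of the 18 alternatives (adjusted p from 0.243 to 0.805).

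The length-scaled level of CD274 varied more than its counts. TPM, which are scaled by length and library, were 7.21, 6.53 and 6.28 in DMSO and 11.3, 2.78 and 4.04 in CCS1477. The CCS1477 libraries thus spanned 4.06-fold in TPM but 1.58-fold in CPM. The length implied by the count and the TPM, set against the median gene of the library, differed 2.54-fold between CCS1477 libraries, a wider range than in 98.7% of the 13303 genes with at least 1 TPM in every library. GENCODE 29 lists 5 transcripts of CD274, of 442 to 3644 bases, and the deposited files are summed per gene. Which transcripts the reads were assigned to was not tested.

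PDCD1LG2 starts 39965 bases after the end of CD274 on the same strand (5510531 to 5571282). It had 5, 1 and 0 counts in the DMSO libraries and 0 counts in each CCS1477 library. A count of 0 allows up to 3 counts, or 0.312 to 0.343 CPM in the CCS1477 libraries, so no fold change is given. Without a filter the gene had an adjusted p = 0.280 (edgeR quasi-likelihood test).

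None of the tested genes around CD274 on 9p24 passed. Of 12 listed neighbours 8 were tested, and 0 were lower and 0 higher, where 10.7% of all tested genes were lower and 7.23% higher. The counts were also 0 under each of the 18 alternatives. JAK2, a kinase of the interferon receptors, had a log2 fold change of 0.13 ± 0.22 (SE), though it was -0.03 without DMSO 1 and -0.07 without CCS1477 1. The 8 values ran from -0.29 for PLGRKT, a plasminogen receptor gene, to 0.13 for JAK2, with a median of -0.06. An unnamed gene on the minus strand overlaps CD274 and PDCD1LG2 (5457477 to 5629748) and held 0 to 11 counts. Strandedness of the counting is not given in the sources used here, so reads of overlapping genes cannot be told apart.

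Among 11502 named genes with a mean of at least 5 CPM, the 5 whose 6-library profile lay closest to that of CD274 were PRKY, LINC00648, ALG10B, RNF170 and ZSCAN26. Closeness was the root mean square difference of log2 CPM after centring each gene on its own mean, and ran from 0.05 for PRKY to 0.07 for ZSCAN26. All 5 shared with CD274 a high value in DMSO 2 and the lowest in CCS1477 2, which follows from how they were chosen. With 6 libraries such a likeness is a description of these libraries. None of the 5 passed the test between groups. This too follows from the choice, because the matched profile of CD274 includes its difference between groups.

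CD276 encodes B7-H3, a B7 family protein that is abundant on many carcinomas. It had 142.7, 140.8 and 135.3 CPM in DMSO and 121.5, 136.8 and 128.3 CPM in CCS1477, and CCS1477 2 lay above DMSO 3. The log2 fold change was -0.12, with a 95% interval from -0.30 to 0.07 (adjusted p = 0.391, edgeR quasi-likelihood test).

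VSIR encodes VISTA, a B7-like checkpoint protein best known on myeloid cells and T cells, and its transcript was present in these libraries (chromosome 10, 71747556 to 71773520, minus strand). It had 61.7, 52.9 and 54.0 CPM in DMSO and 31.9, 31.7 and 27.0 CPM in CCS1477, and every CCS1477 library was below every DMSO library. The level with CCS1477 was 53.7% of that in DMSO (95% interval 45.0% to 64.0%, log2 fold change -0.90 ± 0.12, SE, adjusted p = 0.000354, edgeR quasi-likelihood test). Only 5.02% of all tested genes had a lower log2 fold change. VSIR lies inside CDH23, on the opposite strand, which held 1 to 12 counts against 236 to 724 for VSIR.

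Within a library, the log2 ratio of CD276 to VSIR, both B7 family genes, was 1.31 ± 0.10 in DMSO and 2.10 ± 0.16 in CCS1477 (SD, n = 3), a quantity that does not depend on scaling between libraries. The difference of 0.78 had an exact two-sided permutation p = 0.1, the smallest that 3 against 3 allows, and an adjusted p = 0.2 over the 4 role pairs compared in this way. As a ratio of TPM the difference was 0.75, with an exact two-sided permutation p = 0.2.

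CD24 encodes a small, heavily glycosylated surface protein that binds SIGLEC10 on macrophages, and it showed the largest fall of the 9 tested members (chromosome 6, 106969831 to 106975627, minus strand). It had 228.6, 248.8 and 200.02 CPM in DMSO and 83.1, 70.6 and 73.7 CPM in CCS1477. The highest CCS1477 library was far below the lowest DMSO library. The level with CCS1477 was 33.6% of that in DMSO (95% interval 28.6% to 39.4%, log2 fold change -1.58 ± 0.11, SE, adjusted p = 3.6e-06, edgeR quasi-likelihood test). Of all tested genes, 1.51% had a lower log2 fold change. The 3 near-identical copies named as CD24 pseudogenes in the table had 0 counts in every library.

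CD47, the ligand of SIRPA on phagocytes, did not pass. It had 74.4, 70.7 and 78.7 CPM in DMSO and 67.2, 60.4 and 60.9 CPM in CCS1477, so the groups did not overlap but lay close. The log2 fold change was -0.25 with a 95% interval from -0.46 to -0.04 (adjusted p = 0.0982, edgeR quasi-likelihood test). On the length-scaled scale the groups did overlap, with 44.4 to 48.4 TPM in DMSO and 43.6 to 45.7 TPM in CCS1477, and the log2 difference was -0.03 (adjusted p = 0.900, limma on log2(TPM + 1)). The within-library log2 ratio of CD47 to CD24 went from -1.59 ± 0.24 in DMSO to -0.27 ± 0.04 in CCS1477 (SD, n = 3, exact two-sided permutation p = 0.1, adjusted p = 0.2 over 4 pairs).

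PVR, also known as CD155, and NECTIN2, also known as CD112, are related adhesion proteins encoded 180013 bases apart on chromosome 19. PVR had 214.4, 221.3 and 202.2 CPM in DMSO and 158.2, 166.8 and 172.8 CPM in CCS1477. NECTIN2 had 131.8, 113.6 and 111.7 CPM in DMSO and 82.6, 91.9 and 104.7 CPM in CCS1477. Both sets were separate between groups, with CCS1477 3 of NECTIN2 close to the DMSO libraries.

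PVR stood at 78.0% of its DMSO level (95% interval 68.8% to 88.5%, adjusted p = 0.0119) and NECTIN2 at 78.1% (66.3% to 92.1%, adjusted p = 0.0412), both by the edgeR quasi-likelihood test. The within-library log2 ratio of PVR to NECTIN2 was 0.84 ± 0.13 in DMSO and 0.84 ± 0.11 in CCS1477 (SD, n = 3, exact permutation p = 1). Neither passed on the TPM scales, where PVR had an adjusted p = 0.312 and NECTIN2 an adjusted p = 0.286 with limma on log2(TPM + 1), and NECTIN2 also did not pass with scaling by library size alone (adjusted p = 0.0644) or with the replicate number as a block (adjusted p = 0.0747).

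CMTM6 and CMTM4, the membrane proteins that keep PD-L1 at the cell surface, did not pass in either direction. CMTM4 had 151.7, 157.7 and 141.8 CPM in DMSO and 152.1, 151.9 and 145.6 CPM in CCS1477, with a 95% interval of the log2 fold change from -0.19 to 0.18. CMTM6 had 77.2, 76.3 and 83.7 CPM in DMSO and 88.4, 87.7 and 82.2 CPM in CCS1477. Its log2 fold change was 0.12 with an interval from -0.07 to 0.32 (adjusted p = 0.383 against 0.975 for CMTM4, edgeR quasi-likelihood test). For CMTM6 the interval reached 124.8% of the DMSO level, and for CMTM4 113.0%. CMTM6 overlaps the end of CMTM7 on the other strand, which held 114 to 189 counts.

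**Figure D2:**
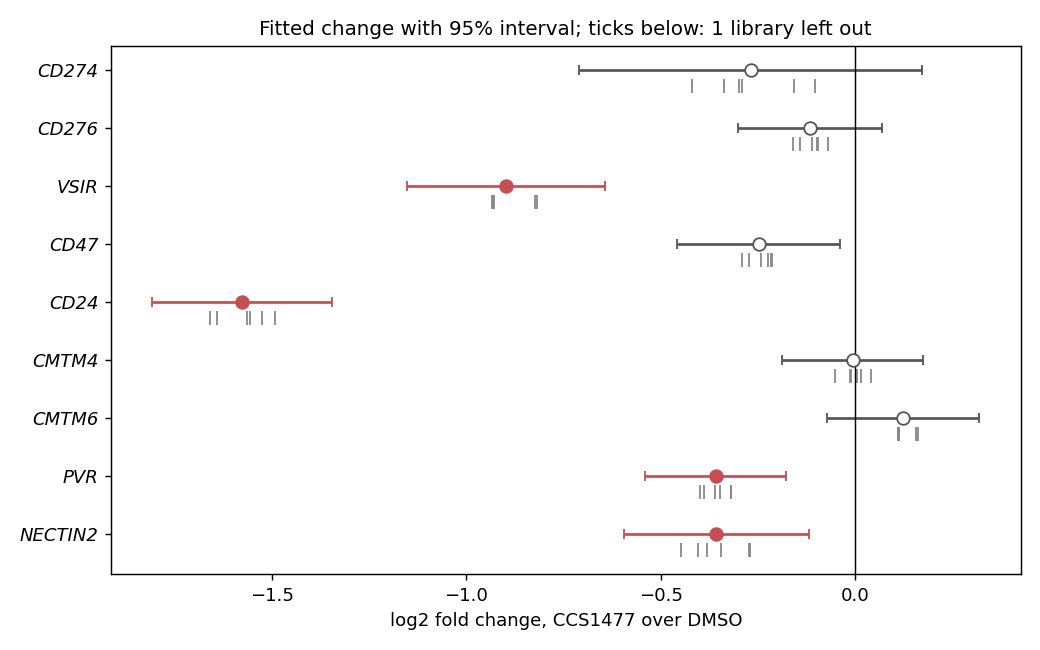
Log2 fold change of CCS1477 over DMSO for the 9 tested members on the horizontal axis, with 95% intervals, filled points for an adjusted p under 0.05, and grey ticks below each point for fits with 1 library left out. The ticks of CD24 and VSIR stay far from 0, and those of CD274 run from -0.42 to -0.10.

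Length-scaled levels placed the members on 1 scale. In DMSO, CD24 led with 155.0 ± 27.1 TPM, followed by PVR at 95.6 ± 12.8, CD276 at 88.3 ± 27.3 and NECTIN2 at 76.6 ± 11.4 TPM (SD, n = 3). CMTM4 at 48.5 ± 9.40, CD47 at 45.9 ± 2.20, CMTM6 at 33.3 ± 0.508 and VSIR at 28.7 ± 2.00 TPM came next, and CD274 at 6.67 ± 0.481 TPM stood well below them. In this order PVR overlapped CD276, CD276 overlapped NECTIN2 and CMTM4 overlapped CD47, while the other neighbours down to CD274 did not overlap. Of all tested genes, 29.7% had a lower mean TPM in DMSO than CD274, and 94.0% a lower one than CD24. With CCS1477, CD24 was at 54.7 ± 4.87 TPM, below PVR at 80.3 ± 0.905, CD276 at 77.3 ± 12.5 and NECTIN2 at 61.9 ± 8.05 TPM, and it overlapped NECTIN2.

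**Figure D3:**
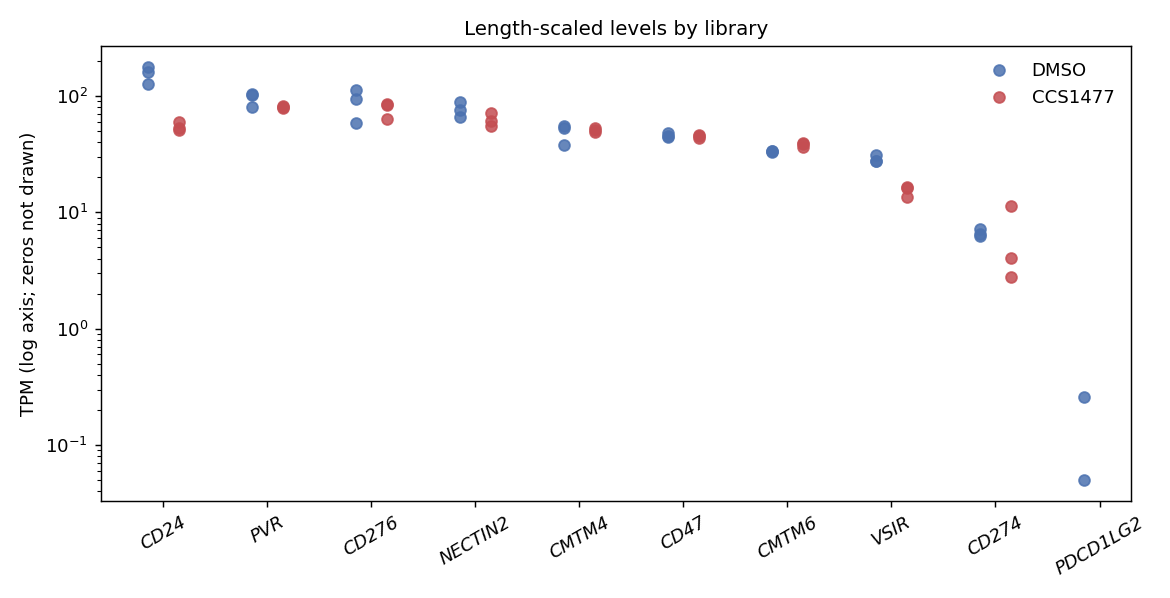
TPM on a log axis for each member in the 6 libraries, ordered by the DMSO mean, with DMSO and CCS1477 points side by side and values of 0 not drawn. CD24 stands highest in DMSO and below PVR, CD276 and NECTIN2 by mean in CCS1477, and the 3 CCS1477 points of CD274 spread from 2.78 to 11.3 TPM.

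Other genes of the same pathways were read from lists. Among 28 further checkpoint and costimulatory ligands, 15 were tested, 3 fell and 0 rose, where 10.7% of all tested genes were lower and 7.23% higher, and the median log2 fold change was -0.20. The 3 were BTN3A2 and BTN3A1, butyrophilins of a family that gamma delta T cells sense, and TNFSF9, the ligand of the costimulatory receptor 4-1BB. BTN3A2 had 59.8, 53.9 and 67.5 CPM in DMSO and 40.3, 33.3 and 33.8 CPM in CCS1477 (log2 fold change -0.75 ± 0.12, SE, adjusted p = 0.00157, edgeR quasi-likelihood test). BTN3A1 stood at -0.63 and TNFSF9 at -0.67. BTN3A1 did not pass without CCS1477 2, and TNFSF9 did not pass without DMSO 1 or CCS1477 1. The count of lower genes was 1 on both TPM scales, where BTN3A2 kept its call. CD80, CD86, VTCN1, HHLA2, TNFSF18, FGL1, CD48 and HLA-G had 0 counts in every library.

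Of 13 receptors, 12 were below the filter and 5 of these had 0 counts in every library, among them CTLA4 and CD28, and PDCD1 itself had at most 0.229 CPM. SIRPA, the receptor of CD47, was present at 37.4, 35.8 and 30.9 CPM in DMSO and 13.2, 13.6 and 14.7 CPM in CCS1477 (log2 fold change -1.33 ± 0.13, SE, adjusted p = 4.9e-05, edgeR quasi-likelihood test). It has close relatives in the SIRP family, so reads may be shared. In the list of CD47 and CD24 maturation and phagocytosis signals, 9 of 11 genes were tested, 4 fell and 0 rose (10.7% lower and 7.23% higher over all tested genes), and their median log2 fold change was -0.20. Besides SIRPA they were LRP1, the phagocytic receptor of calreticulin, at -0.89, the CD47 ligand THBS1 at -0.48 and, named after its value was seen, the calreticulin gene CALR at -0.44. The count was 2 without CCS1477 2, and 1 on both TPM scales.

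In the interferon gamma route to CD274, 4 of 12 tested genes fell and 0 rose (median -0.16), against 10.7% lower and 7.23% higher over all tested genes. Among them were IRF9 at -1.14, IRF2 at -0.73 and STAT3 at -0.33. The list was not split by whether a gene carries or restrains the signal, so its counts give no direction for the route. STAT3 passed without 1 library only when that was DMSO 3, and IRF2 did not pass without DMSO 1 or CCS1477 2. IRF1, which binds the interferon response element core, had 32.9 ± 1.83 CPM in DMSO and 32.7 ± 1.36 CPM in CCS1477 (SD, n = 3), a log2 fold change of -0.01 ± 0.11 that was above 0 under 7 of the 18 alternatives (SE, adjusted p = 0.966, edgeR quasi-likelihood test). The number of genes called lower in this list was 1 when DMSO 1 or CCS1477 2 was left out, 2 without CCS1477 1 or CCS1477 3, 2 with the replicate number as a block and 1 on both TPM scales.

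Among 16 other transcriptional regulators of CD274, all tested, 2 rose and 1 fell (median -0.04), against 7.23% higher and 10.7% lower over all tested genes, so that the counts lay near the background. BRD2, a BET bromodomain protein, had 369.2, 327.2 and 348.0 CPM in DMSO and 595.6, 678.4 and 661.3 CPM in CCS1477 (log2 fold change 0.89), and JUN stood at 0.47 and EGFR at -0.41. JUN lost its call when DMSO 1, CCS1477 2 or CCS1477 3 was left out, and EGFR passed without 1 library only when that was DMSO 3. MYC (-0.17) did not pass, nor did EP300 (0.17) or CREBBP (0.01), which encode the targets of the compound, and CREBBP was below 0 without DMSO 3, CCS1477 2 or CCS1477 3.

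Among the genes that handle the PD-L1 protein after synthesis, 8 of 26 tested genes rose and 3 fell (median 0.04), against 7.23% higher and 10.7% lower over all genes. STUB1, a ubiquitin ligase that targets PD-L1 and many other proteins, had 88.5, 80.6 and 97.1 CPM in DMSO and 118.8, 144.8 and 155.9 CPM in CCS1477 (log2 fold change 0.66 ± 0.11, SE, adjusted p = 0.00239, edgeR quasi-likelihood test). PDCD6IP, which encodes the ESCRT-associated protein ALIX, stood at 0.49 and SYVN1, a ubiquitin ligase of the endoplasmic reticulum, at 0.43. The other 5, named after their values were seen, were HIP1R, which sends PD-L1 to the lysosome, at 0.45, TRAPPC4 at 0.48, HGS at 0.48, VPS4A at 0.36 and the deubiquitinase USP22 at 0.27. The 3 that fell were CDK4 at -0.39, the palmitoyltransferase ZDHHC9 at -0.35 and the oligosaccharyltransferase subunit STT3A at -0.31. The genes that rose act in both directions on PD-L1, since STUB1 and HIP1R promote its loss while USP22 and TRAPPC4 protect it. The count of higher genes was 2 without CCS1477 3, 4 without CCS1477 2 and 3 on both TPM scales, and 0 genes were called lower when CCS1477 2 or CCS1477 3 was left out, 1 when DMSO 1 or CCS1477 1 was, and STUB1 passed under all 18 alternatives.

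In the other CMTM family and related MARVEL proteins, 7 of 10 were tested, 1 fell and 0 rose (median -0.16), against 10.7% lower and 7.23% higher over all tested genes. The gene that fell was MAL2, an apical sorting protein, at -0.35. It did not pass with the replicate number as a block or without DMSO 1, DMSO 2, CCS1477 2 or CCS1477 3. Its call was also lost on both TPM scales, at a threshold of 0.01 and against a fold of 1.2.

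**Figure D4:**
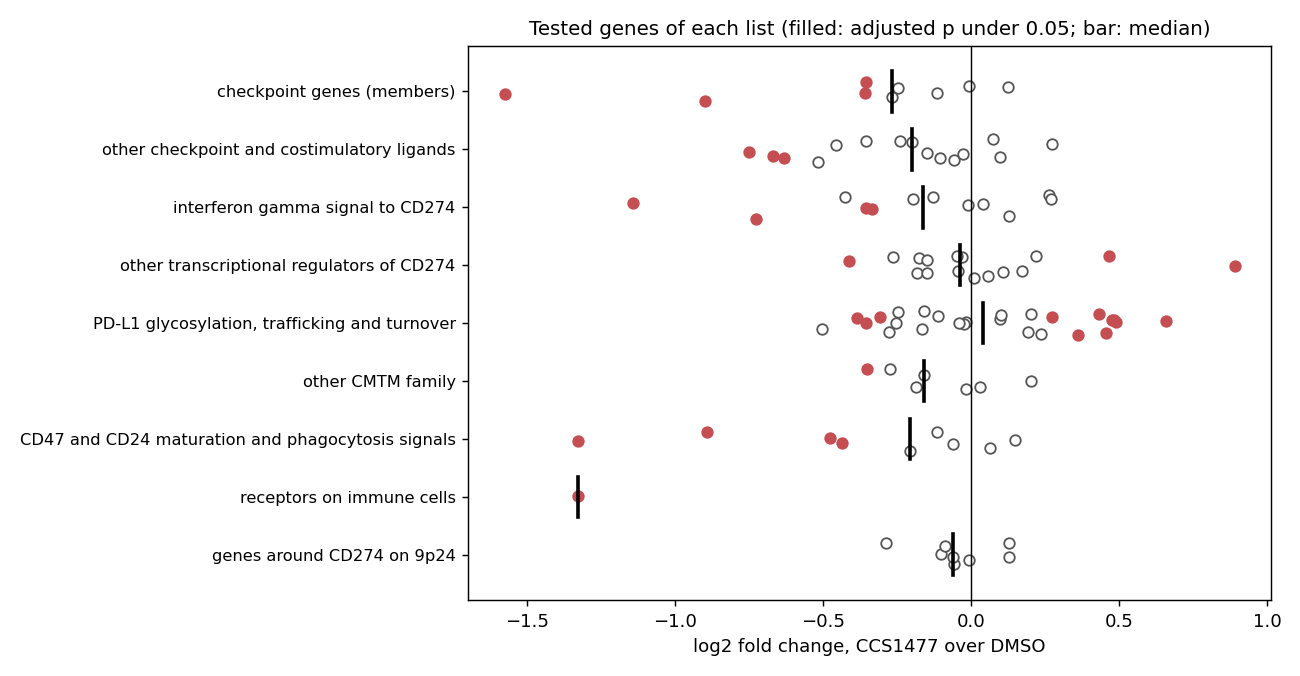
Log2 fold change of CCS1477 over DMSO for each tested gene of the members and of the 8 pathway lists, 1 row per list, with filled points for an adjusted p under 0.05 and bars for medians. The members hold the lowest value of the plot, CD24 at -1.58, and the PD-L1 handling list holds 8 filled points above 0.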

How the data were processed

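RNA-seq of poly(A) RNA was measured in 6 libraries of DU145, 3 with DMSO and 3 with 1 µM CCS1477 for 24 h, grouped by the labelled treatment. The authors deposited estimated counts per gene (10.2% to 10.7% of nonzero values not whole, from the values) and TPM per gene. Per the submitters' processing notes, reads were trimmed with Trimmomatic 0.39; for the aligner, quantifier, build, annotation and strand setting, the entry is not given in the sources used here, and coordinates are as the files give them.

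Counts were rounded and tested with edgeR 4.0.16 in R 4.3.3: TMM scaling, filterByExpr (minimum count 10, minimum total 15), the quasi-likelihood test without a block, and Benjamini-Hochberg adjustment over 14928 genes at 0.05. Library totals of 8286880 to 11956734 counts put a floor of 3 counts at 0.256 to 0.368 CPM, which covers counting error only. Ratios within a library used 0.5 counts added and exact two-sided permutation tests. Alternatives used limma 3.58.1 (voom, and log2(TPM + 1) or log2(TPM + 0.1)), DESeq2 1.42.0, other scalings, filters and thresholds, a fold of 1.2, the replicate block and each library left out. The test script was tested on simulated data.

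The members and lists were chosen with earlier results of these data known. Named genes are all members, up to 3 called genes per list and direction by adjusted p, EP300, CREBBP, JAK2, IRF1 and MYC, and the 5 genes nearest to CD274. Other genes that the report names (HIP1R, TRAPPC4, HGS, VPS4A, USP22, CALR, PLGRKT, the genes overlapping members, markers and genes at 0 counts) fall outside this rule and were named after their values were seen. Some genes are not reported here. The length implied by count and TPM was added after the data were seen.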

Additional observations from a re-analysis of the deposited data

How the results depend on the processing

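Members called lower numbered 4, and 2 with limma on either TPM scale, at a threshold of 0.01 or against a fold of 1.2, and 2 to 4 with 1 library left out; 0 were higher under any of the 18 alternatives. All genes lower, 1597 in the fit reported, were 427 with log2(TPM + 1), 410 with log2(TPM + 0.1), 852 at a threshold of 0.01, 846 against a fold of 1.2 and 925 to 1772 with 1 library left out; genes higher, 1079, were 293, 280, 380, 369 and 487 to 1311. Lower genes made 59.7% of the calls, and 48.3% with scaling by library size alone (1361 lower, 1456 higher). The median of all genes moved by at most 0.065 from the fit reported, with log2(TPM + 0.1).

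CMTM4 turned positive, at 0.043 with library size, 0.0036 with RLE factors, 0.012 with upper quartile factors, 0.0033 in DESeq2, 0.090 and 0.092 on the TPM scales, 0.011 with no filter and 0.0013 with a minimum count of 30, and ran from -0.050 to 0.040 with 1 library left out. IRF1 turned to 0.038 with library size, 0.0069 with upper quartile factors, 0.029 and 0.030 on the TPM scales and 0.0065 with no filter, and ran from -0.041 to 0.038 with 1 library left out. With 1 library left out CREBBP ran from -0.14 to 0.10 and JAK2 from -0.070 to 0.36. The difference in the PVR to NECTIN2 ratio was -0.00032 with 2 counts added, and -0.069 to 0.061 with 1 library left out. For these the cause was not tested. PDCD1LG2 gave no ratio, being under the floor.

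The labels do not say that a number is a shared culture or day, so the numbers were not taken as pairs. Same-numbered libraries of the groups correlated at -0.088, -0.20 and 0.0078 in their deviations from the group means. Differently numbered libraries correlated at -0.21 to 0.29, the highest being DMSO 2 with CCS1477 1. Whether libraries shared a batch under other numbers was not tested. With the replicate number as a block, 1306 genes were lower and 799 higher, 3 members were lower, and the log2 fold change of CD274 was -0.28. Depth limits PDCD1LG2, which at 0 to 5 counts did not pass the filter.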

Other observations

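The length implied by count and TPM, set against the median gene of each library, differed within groups for other members as well. For CD276 it ran from -0.38 to 0.32 (log2) over the DMSO libraries and from -0.16 to 0.31 over the CCS1477 libraries. For CD47 it ran from 0.042 to 0.10 in DMSO and from -0.15 to 0.016 in CCS1477, groups that did not overlap (exact two-sided permutation p = 0.1, the smallest 3 against 3 allows). For CD24, CMTM6 and NECTIN2 all 6 libraries lay between -0.0402 and 0.0338.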
